A study of Mus musculus with 374 samples.

Results

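Mpo-high and Mpo-low progenitor/stem cells were compared within a single sorted population. Of the 95 wells that held a bone marrow cell of the Lin- Kit+ Sca1+ gate (LSK, plate rows K to N), 94 had at least 3000 UMIs (unique molecular identifiers, 1 for each captured mRNA molecule) on mouse genes. These wells were ranked by the CPM of Mpo (its UMIs per 1000000 UMIs on mouse genes), and wells of equal Mpo were ordered with the lower total first. The first 31 wells form the Mpo-high cells (the high group), the last 31 the Mpo-low cells (the low group), and 32 wells lie between them (the middle). They belong to 374 wells of 5 sorted populations, all taken from 1 female C57BL/6 mouse of 10 to 13 weeks, untreated as far as the labels say, and laid out on 1 plate of 384 wells. B lymphocytes, erythroblasts, granulocytes and the progenitor/stem cells came from its bone marrow and T lymphocytes from its thymus, and the fluorescence of every cell was recorded at the sort (index data).

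Mpo encodes myeloperoxidase, the haem enzyme of the primary (azurophil) granules of neutrophils and monocytes. In the marrow its transcription begins early, in multipotent and granulocyte-monocyte progenitors, and ends as granulocytes mature, when granule proteins persist without their mRNA. The Lin- Kit+ Sca1+ gate is known to hold long-term stem cells together with multipotent progenitors that already lean towards the lymphoid, the myeloid or the megakaryocyte and erythroid side, and it is bounded by the surface levels of c-Kit (the stem cell factor receptor) and Sca-1 (the Ly6a product).

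Because Mpo chose the cells, its own values are a description. The Mpo-high cells held 179 Mpo UMIs (568 CPM in the summed counts, 95% exact Poisson interval 488 to 658), the middle wells 14 and the Mpo-low cells 0, which allows up to 3 UMIs. Per well the Mpo-high cells ranged from 178 to 1829 CPM with a median of 391. The ranking is coarse at its lower end: 4 of the Mpo-high wells rested on 1 Mpo UMI and 6 on 2 UMIs, whereas 14 had 5 or more, and the 2 highest wells together held 41 UMIs. The last well inside the high group (L15) had 178 CPM and the first outside (L6) 158 CPM, both from 2 UMIs. No Mpo UMI was counted in 50 of the ranked wells. The order of ties therefore decided that the 31 of them with the most UMIs became the Mpo-low cells and the other 19 fell in the middle. The last well of the middle (K23, 6365 UMIs) and the first of the low group (M17, 6388 UMIs) both lack Mpo, and their depth alone put them on either side of the border.

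**Figure D1:**
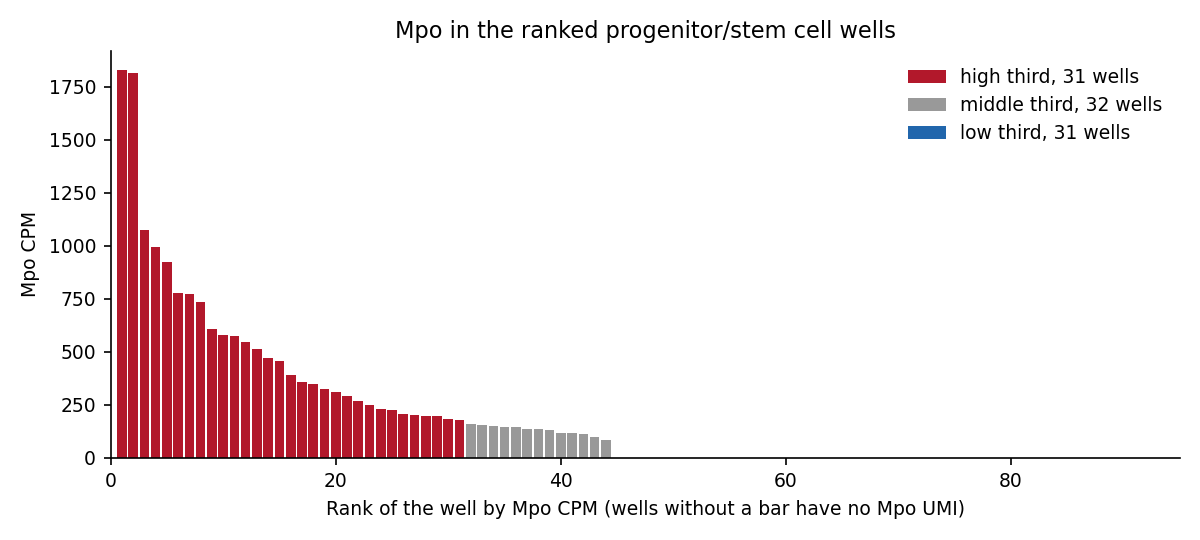
Mpo CPM (y axis, linear from 0) of each of the 94 ranked progenitor/stem cell wells (x axis, rank), 1 bar a well, coloured by group. The high group runs from 1829 to 178 CPM, 13 wells of the middle have 1 or 2 UMIs, and 50 wells have no bar because no Mpo UMI was counted.

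Elsewhere on the plate Mpo was close to absent, apart from 1 granulocyte well, and the levels outside that well set the background. Summed over wells it reached 9.00 CPM in the erythroblasts, 15.0 in the T lymphocytes, 22.1 in the B lymphocytes and 124 in the granulocytes, where 3 of 96 wells held all 50 UMIs, against 231 in all progenitor/stem cells. A Mpo UMI was counted in 6.25% of the erythroblasts (median 6114 UMIs per well) and in 46.3% of the progenitor/stem cells (median 7959). Single lymphocyte wells with 1 or 2 Mpo UMIs reached 291 and 294 CPM at their lower depth, so the Mpo-high wells that rest on 1 or 2 UMIs are not separated from that level one by one.

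The sequences just before the starts of Mpo and of the granule protease genes Prtn3, Ctsg and Elane are shown because these genes are transcribed together in early granulocyte development and behaved differently here. Each line gives 250 bases upstream of the RefSeq start (GRCm38.p6) in the direction of transcription. Capitals mark matches to GAGGAA, searched on both strands (TTCCTC on the other). It is 1 form of the site read by the ETS family of factors, to which PU.1 belongs. Other forms with the shorter core GGAA also occur in these windows and are not marked or counted.
Mpo (chr11:87793534-87793783, plus strand): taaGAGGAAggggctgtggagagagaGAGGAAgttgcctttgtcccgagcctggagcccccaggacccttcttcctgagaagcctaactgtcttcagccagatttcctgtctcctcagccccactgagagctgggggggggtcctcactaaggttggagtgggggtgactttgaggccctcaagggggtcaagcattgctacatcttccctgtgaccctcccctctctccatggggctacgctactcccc
Prtn3 (chr10:79879417-79879666, plus strand): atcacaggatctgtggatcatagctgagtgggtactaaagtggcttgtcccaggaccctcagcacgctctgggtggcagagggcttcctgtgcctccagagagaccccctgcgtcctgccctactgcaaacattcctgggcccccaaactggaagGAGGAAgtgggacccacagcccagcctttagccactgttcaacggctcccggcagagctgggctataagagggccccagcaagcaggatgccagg
Ctsg (chr14:56102575-56102824, minus strand): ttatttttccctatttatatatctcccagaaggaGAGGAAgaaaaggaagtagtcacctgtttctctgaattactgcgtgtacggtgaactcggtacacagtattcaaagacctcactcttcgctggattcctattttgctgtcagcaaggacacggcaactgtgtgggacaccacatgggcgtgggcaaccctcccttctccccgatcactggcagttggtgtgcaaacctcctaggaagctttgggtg
Elane (chr10:79886062-79886311, plus strand): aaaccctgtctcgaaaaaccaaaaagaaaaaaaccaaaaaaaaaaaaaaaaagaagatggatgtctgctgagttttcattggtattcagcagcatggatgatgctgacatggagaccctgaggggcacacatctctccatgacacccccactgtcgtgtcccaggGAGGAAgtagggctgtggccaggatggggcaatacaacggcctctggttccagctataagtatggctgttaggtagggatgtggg
Mpo holds 2 matches, which begin 247 and 224 bases before its start, and Prtn3, Ctsg and Elane hold 1 each, at 95, 216 and 85 bases. Such a match is present in 23.3% of 32851 promoter windows of the same length. A pattern read by C/EBP factors, TTNNGNAA, is in 36.8% of the windows and in none of these 4. A match describes the letters and does not show that a factor binds there.

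The Mpo-high cells were slightly deeper than the Mpo-low cells. The median was 9611 UMIs on mouse genes (4428 to 18677) against 8451 (6388 to 24033), with 3875 against 3452 genes with a UMI and 4.56% against 5.27% of UMIs on ERCC spike-ins. The middle wells were shallower, at a median of 6042 UMIs. All 374 well barcodes were distinct, and every ranked well was nearest in expression to the progenitor/stem cells, as its label says. Of the genes of the gate, Kit was 677 CPM in the summed progenitor/stem cells against 22.1 to 39.9 in the other populations. Ly6a, at 79.1 CPM, was under its level in the granulocytes (171 CPM). Cd34, which was not part of the gate, was 520 CPM against 9.91 to 15.0. The groups were spread over the plate rows unevenly: row K, next to the granulocytes, held 4 Mpo-high and 11 Mpo-low wells, row L 9 and 4, row M 9 and 10, and row N 9 and 6. Since all cells came from 1 mouse, each group is 1 sample. No test between them is possible, and the 95% intervals given (exact Poisson for CPM, exact conditional binomial for ratios) cover counting error only.

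Of 4087 genes with at least 30 UMIs in both groups together, Mpo left out, 88 (2.15%) were at least 2-fold higher in the Mpo-high cells and 64 (1.57%) at least 2-fold lower. The median log2 ratio over these genes was 0.03, and 5% of them lay below -0.75 and 5% above 0.79. The lists of lineage genes and of genes of cell functions, ribosomal protein and mitochondrial genes left out, held 104 genes with that many UMIs. Of these, 4 (3.85%) were at least 2-fold higher, Prtn3, Nkg7 and Mcm4 among them. At least 2-fold lower were 6 (5.77%), namely Gata2, Dntt, Ighm, Rhd, Ltf and Camp. The lists were written with earlier results of these data known.

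Most genes of the primary granule list encode proteins that share the granule with myeloperoxidase, or its processing and control. Nkg7 is also on the list, although it encodes a protein of cytotoxic granules. Of the 10 on the list 5 had at least 30 UMIs, all with a log2 ratio above 0 (median 0.62, against 0.03 over all genes), and Prtn3 and Nkg7 passed 2-fold. Prtn3, the gene of proteinase 3, was counted in 28 of 31 Mpo-high wells (0 to 1745 CPM, median 311), 28 of 32 middle wells (median 326) and 22 of 31 Mpo-low wells (0 to 617 CPM, median 190). It was thus present in most progenitor/stem cells. In the sums it was higher in the Mpo-high than in the Mpo-low cells, at 410 CPM (342 to 487) against 190 CPM (145 to 246). The log2 ratio was 1.11 (0.65 to 1.58). In the middle, the 13 wells with Mpo had 311 CPM (215 to 434) and the 19 shallow wells without Mpo 367 CPM (259 to 503). With ties ordered the other way the log2 ratio of Prtn3 was 0.35. In the T lymphocytes it was 29.9 CPM.

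Ctsg, the gene of cathepsin G, behaved differently, with 14 UMIs in 5 Mpo-high wells and 0 in the 63 other ranked wells. Most of them, 9 UMIs, came from well M5, the well with the highest Mpo CPM. The ratio to the Mpo-low sum set at 3 UMIs was at least 4.51-fold higher. Elane, the gene of neutrophil elastase, had 3 UMIs in the Mpo-high, 5 in the middle and 7 in the Mpo-low cells, and its level of 20.4 CPM over the progenitor/stem cells was that of the T lymphocytes (20.0 CPM), which is read as background, while the granulocytes had 352 CPM. Among the rest, Nkg7, which encodes a cytotoxic granule membrane protein, had 34 UMIs against 16 (log2 ratio 1.04, 0.14 to 2.00). Without well N3, which held 7 of the 16, its log2 ratio was 1.80, and by plate rows it was 2.55 in K and L and 0.29 in M and N. Serpinb1a, an inhibitor of the granule proteases, had 84 against 53 (0.62, 0.10 to 1.14), and Lyz2 (lysozyme) 111 against 105 (0.03, -0.37 to 0.43). The list in sum stood at 2203 CPM against 1680 (log2 ratio 0.39, 0.22 to 0.56), with 0.64 in rows K and L, 0.21 in rows M and N, and 0.08 with ties ordered the other way.

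**Figure D2:**
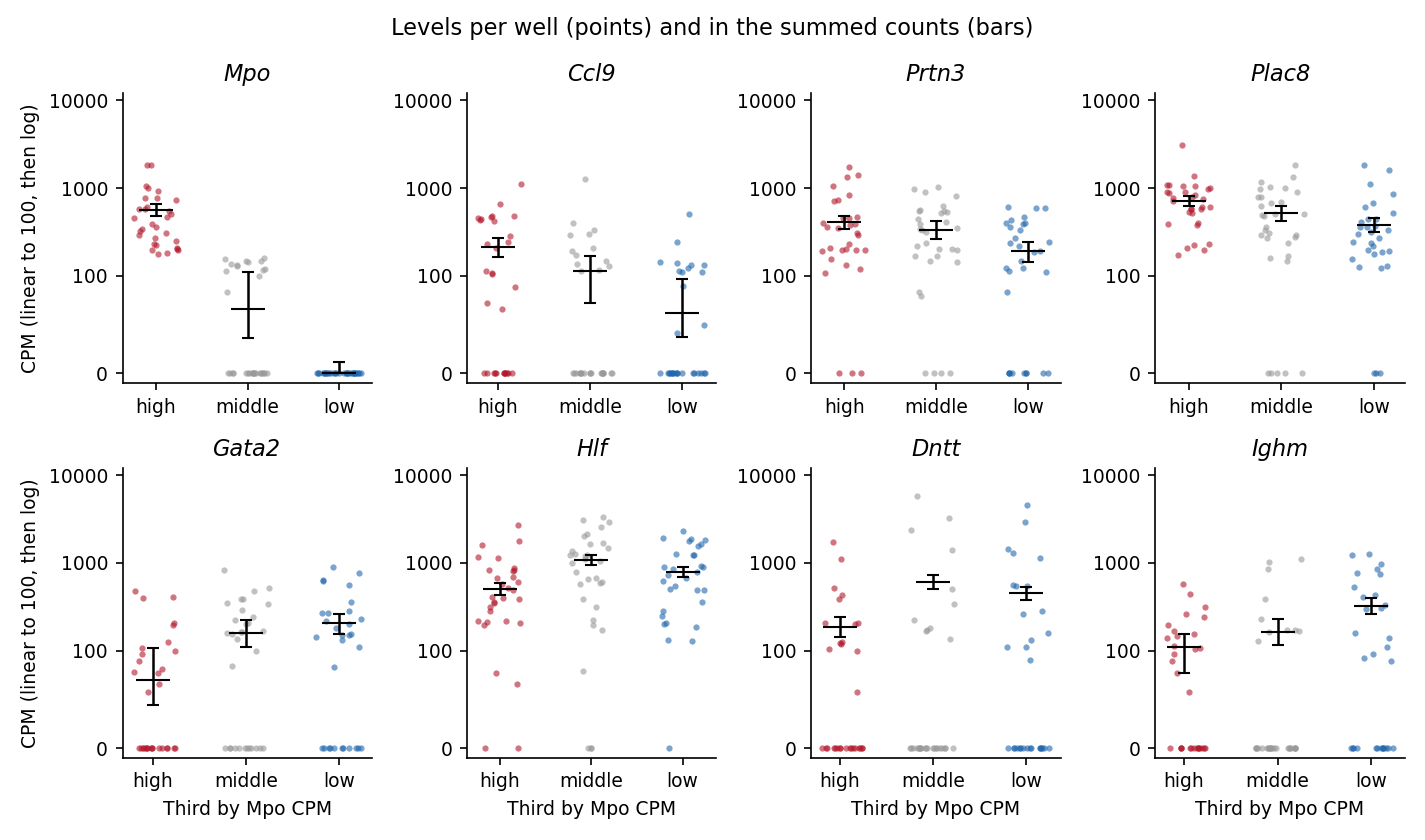
CPM of 8 genes (y axis, linear up to 100 and logarithmic above) in each group by Mpo (x axis). Points are wells, and the black bars are the level in the summed counts with its 95% Poisson interval. Mpo, which chose the groups, was 568 CPM in the high group and 0 in the low group, Prtn3 410 and 190, and Gata2 69.8 and 203, and the wells of the high and low groups overlap for every gene but Mpo.

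Other myeloid genes were mixed. Plac8, a small cysteine-rich protein of myeloid and lymphoid progenitors, was counted in all 31 Mpo-high wells (173 to 3096 CPM, median 713) and in 28 of 31 Mpo-low wells (0 to 1857 CPM, median 297). Its sums were 227 and 117 UMIs, a log2 ratio of 0.91 (0.58 to 1.24), just under the 2-fold limit, which became 0.37 with ties ordered the other way. Ccl9, a CC chemokine made by myeloid cells, was in 19 against 13 wells, and 67 against 19 UMIs gave a log2 ratio of 1.77 (1.02 to 2.59), while the T lymphocytes had 15.0 CPM. Of the 8 measured receptor and surface genes 4 had a log2 ratio above and 4 below 0. Csf3r, the receptor of granulocyte colony-stimulating factor, had 36 against 43 UMIs (-0.30, -0.98 to 0.37), and Csf2rb, the shared beta chain of the GM-CSF receptor family, 27 against 16 (0.71, -0.24 to 1.70). Apart from Plac8, then, no listed myeloid receptor or surface gene had an interval of its ratio clear of 0.

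The myeloid transcription factors were sparse. Spi1, the gene of PU.1, had 48 against 63 UMIs (log2 ratio -0.44, -1.01 to 0.12). Runx1, a factor of stem cells and their early progeny, had 74 against 46 (0.64, 0.09 to 1.202). Irf8, a factor of monocytes and dendritic cells, had 32 against 16 (0.95, 0.04 to 1.92), but 13 of the 32 lay in well K20 and without it the log2 ratio was 0.26. In a random thinning of each well to 3000 UMIs (fixed seed), which leaves fewer Irf8 UMIs, it was -0.58. With all wells, the mean over wells of CPM gave 0.82. Gfi1 had 13 against 9 UMIs, and like the other counted members it had fewer than 30 UMIs in both groups together. Cebpa, also on the list, was not among the counted genes, so its level is unknown here.

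Lower in the Mpo-high cells were Gata2 and genes of the megakaryocyte and erythroid branch. Gata2, a zinc finger factor of stem cells, megakaryocyte and mast cell precursors, was counted in 15 of 31 Mpo-high wells (0 to 476 CPM, median 0) and in 20 of 31 Mpo-low wells (0 to 898 CPM, median 149), while the middle wells had a median of 156. Its sums of 22 and 62 UMIs gave a log2 ratio of -1.54 (-2.32 to -0.82), or 2.91-fold lower in the Mpo-high cells. The ratio was also below 0 in rows K and L (-1.13), in rows M and N (-1.84) and with the other order of ties (-1.48). It was weaker, at -0.35, in a random thinning of each well to 3000 UMIs (fixed seed), which leaves fewer Gata2 UMIs. There 32.3% against 35.5% of wells had a Gata2 UMI. The mean over wells of CPM, which weighs each well equally, gave -1.32, and a minimum of 5000 UMIs per well gave -1.675.

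All 5 measured genes of the megakaryocyte and erythroid list had a log2 ratio below 0 (median -0.66), though Rhd alone passed 2-fold (11 against 23 UMIs, -1.11, -2.30 to -0.02). Car2, carbonic anhydrase 2, was found in every ranked well. It ranged from 96.9 to 2025 CPM in the Mpo-high cells (median 724) and from 144 to 2297 in the Mpo-low cells (median 812), with 220 against 299 UMIs (-0.49, -0.75 to -0.23). Itga2b, the CD41 chain of megakaryocytes, had 13 against 25 (-0.99, -2.08 to 0.03) and Tfrc, the transferrin receptor, 50 against 66 (-0.45, -1.01 to 0.10). The list summed to 1200 CPM against 1798 (log2 ratio -0.58, -0.78 to -0.39). Of the haem synthesis genes 4 of 5 were below 0 (median -0.29), and their sum was 340 CPM against 505 (-0.57, -0.94 to -0.21), which came to -0.12 with ties ordered the other way.

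The stem cell list was less uniform, with 7 of 11 measured genes below 0 and a median log2 ratio of -0.20. Its summed log2 ratio of -0.22 (-0.34 to -0.09) was 0.12 in rows K and L, -0.47 in rows M and N, and 0.14 after thinning with a new ranking. With ties ordered the other way it was -0.61, and against all wells without Mpo -0.38. Hlf, a factor of long-term stem cells, had a median of 405 CPM per well in the Mpo-high (0 to 2714), 1021 in the middle and 718 in the Mpo-low cells (0 to 2312). Its summed log2 ratio was -0.62 (-0.92 to -0.33), but this came from rows M and N (-1.20), while it was 0.02 in rows K and L. The Hlf ratio was -1.12 with ties ordered the other way, -0.81 against all wells without Mpo, and -0.22 after thinning with a new ranking. The 19 shallow wells without Mpo held 1206 CPM of Hlf (1004 to 1437), against 781 (685 to 887) in the Mpo-low cells. Txnip, an inhibitor of thioredoxin known from quiescent cells, had 126 against 190 UMIs (-0.64, -0.98 to -0.31), and Hoxa9, a homeobox factor of stem cells and progenitors, 50 against 82 (-0.76, -1.30 to -0.24). Members on the other side were Ifitm1, an interferon-induced membrane protein (83 against 53 UMIs, 0.60, 0.08 to 1.12), and Adgrg1 (359 against 302, 0.20, -0.02 to 0.43). Kit, a gene of the gate, had a log2 ratio of 0.24 (-0.04 to 0.53). Cd34 and Flt3 stand with it in the list called gate genes here but did not bound the gate. Cd34 had a log2 ratio of 0.41 (0.09 to 0.74). Flt3, the receptor of multipotent and lymphoid progenitors, had -0.41 (-0.77 to -0.05), with -0.73 in rows K and L and 0.05 in rows M and N.

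Lymphoid priming was carried by few wells. Dntt, the terminal transferase that marks the first lymphoid steps, was counted in 14 of 31 Mpo-high wells (0 to 1725 CPM) and 15 of 31 Mpo-low wells (0 to 4580 CPM), and both medians were 0. The wells with a UMI were as many, and the sums differed (59 against 137 UMIs, log2 ratio -1.26, -1.73 to -0.81). Well K15 held 37 of the 137, and without it the log2 ratio was -0.85. It was -0.21 when all ranked wells were split into the upper and the lower 47. In the middle, well L6 held 73 of 129 UMIs although it also had 2 Mpo UMIs and lay next to the border of the high group. Ighm, the constant region of the IgM heavy chain, had 35 against 98 UMIs (-1.53, -2.13 to -0.96), but 51.2% of T lymphocyte wells had an Ighm UMI at a median of 4347 UMIs, more than the 47.4% of progenitor/stem cell wells, so that a single Ighm UMI is not distinct from background. The wells highest in Ighm were also high in Dntt: M2 had 1256 CPM of Ighm and 2890 of Dntt, K15 1238 and 4580, and L6 1109 and 5785. Mef2c, a factor of lymphoid priming, had 110 against 143 (-0.43, -0.80 to -0.06). Of the 8 measured members of this list 6 were below 0, and Satb1, a chromatin organiser, was among those above it (35 against 26, 0.38, -0.39 to 1.17).

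Genes of DNA synthesis were higher in the Mpo-high cells. All 11 measured members of the DNA replication list had a log2 ratio above 0 (median 0.65), and Mcm4, a subunit of the replicative helicase, passed 2-fold with 77 against 37 UMIs (1.01, 0.43 to 1.62). Its partners Mcm3 (100 against 57, 0.76, 0.28 to 1.26) and Mcm5 (80 against 48, 0.69, 0.16 to 1.24) were close behind. Tyms, the thymidylate synthase, had 31 against 17 UMIs (0.82, -0.08 to 1.76). Dna2, a nuclease and helicase of replication, had 24 against 7 (1.73, 0.47 to 3.19). Per well the list ranged from 292 to 6498 CPM in the Mpo-high cells with a median of 1829, from 130 to 5072 in the middle with a median of 753, and from 154 to 5736 in the Mpo-low cells with a median of 808. Above the median of all ranked wells, 912 CPM, lay 21 Mpo-high, 11 middle and 15 Mpo-low wells.

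The mitosis list followed with all 7 measured members above 0 (median 0.70). Top2a, the topoisomerase that resolves sister chromatids, had 161 against 82 UMIs (0.93, 0.53 to 1.33), and Mki67, a marker of cycling cells, had 156 against 93 (0.70, 0.32 to 1.08). Single wells weighed heavily: without well N14 the list's log2 ratio of 0.61 became 0.26 and without N3 it became 0.92, and it was -0.17 in rows K and L but 0.94 in rows M and N.

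The replication list differed among the wells without Mpo. The 19 wells without Mpo in the middle, with a median of 5662 UMIs, had 839 CPM of replication genes (672 to 1035), against 1848 (1698 to 2007) in the 31 deeper Mpo-low wells that also lack Mpo and 2740 (2560 to 2929) in the Mpo-high cells. The list's log2 ratio of 0.57 (0.41 to 0.72) was 1.97 with ties ordered the other way, 0.78 against all 50 wells without Mpo, and 0.53 when the wells of both groups were thinned to 3000 UMIs. It was -0.01 when thinned wells were also ranked anew, which changed the groups: 25 of the 31 high and 21 of the 31 low wells were shared with the first ranking, and 27 of the new high wells had an Mpo UMI left. The mitosis list was at 0.77 after thinning and at 0.46 with the new ranking.

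**Figure D3:**
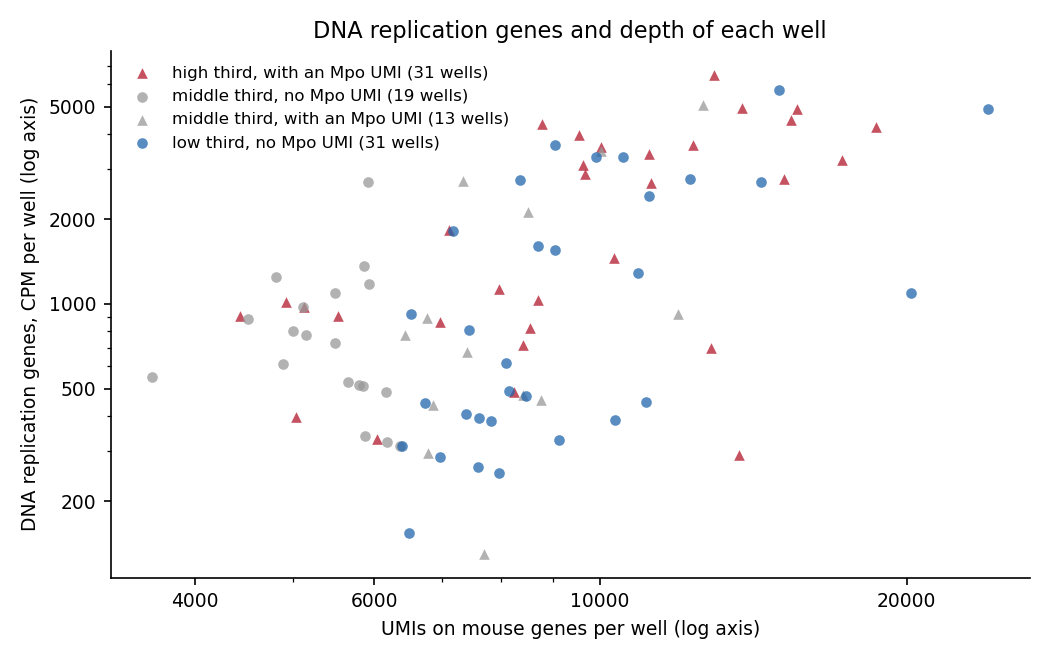
Summed CPM of the DNA replication genes (y axis, log) against UMIs on mouse genes (x axis, log) for each of the 94 ranked wells. Colours are the groups, triangles are wells with an Mpo UMI and circles wells without; the shallow wells without Mpo, which fell in the middle, lie low, and the Mpo-high wells have the highest median, 1829 CPM.

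Growth-related and secretory groups differed less. The nucleolar ribosome biogenesis list stood at 3086 against 2678 CPM (log2 ratio 0.20, 0.07 to 0.34), with 8 of 11 members above 0 and Myc at 91 against 55 UMIs (0.68, 0.18 to 1.19). The endoplasmic reticulum folding genes as a list had a median log2 ratio of -0.07, although Calr, the chaperone calreticulin that binds myeloperoxidase during its maturation, had 210 against 148 UMIs (0.46, 0.15 to 0.77) and Hspa5 (BiP) 72 against 98 (-0.49, -0.95 to -0.04). The cytosolic ribosomal protein genes stood at a log2 ratio of 0.05 in sum. The 1 called by symbol, Rps6ka5, encodes a kinase and no ribosomal protein. The 11 measured genes of the mitochondrial genome were all below 0 (median -0.26), but their sum, at a log2 ratio of -0.28, was 0.86 with ties ordered the other way and 0.0075 in rows K and L. Their share per well spread from 0.25% to 5.27% in the Mpo-high and from 0.169% to 9.02% in the Mpo-low cells. Lists with few UMIs were the mast cell, basophil and eosinophil genes (12 against 6), the immediate early genes (58 against 86) and the dendritic cell genes (111 against 117).

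**Figure D4:**
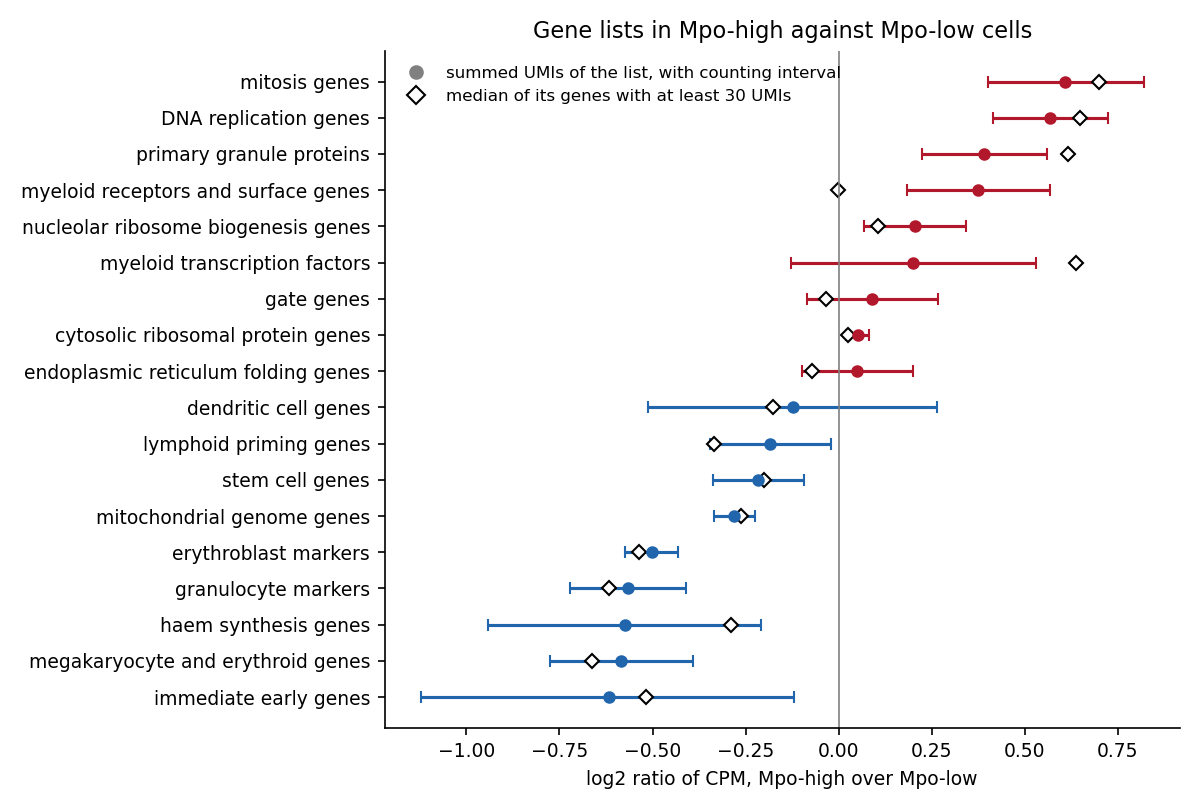
Log2 ratio of Mpo-high over Mpo-low CPM (x axis) for each gene list with at least 100 UMIs in both groups together. Dots are the summed UMIs with a 95% counting interval and diamonds the median of the members with at least 30 UMIs. Mitosis (0.61) and DNA replication genes (0.57) stand highest, and immediate early (-0.62), megakaryocyte and erythroid (-0.58) and haem synthesis genes (-0.57) lowest.

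Further genes chosen by rank of their ratio, with no list behind them, were mostly near the lower limit of 30 UMIs. Higher in the Mpo-high cells were Mtr, the methionine synthase of the folate cycle (33 against 10 UMIs, 1.67, 0.62 to 2.86), Wdr76 (31 against 10), Tex2 (28 against 9), Mbd6 (30 against 10), Dpy19l1 (27 against 9), Fh1, the fumarate hydratase (29 against 10), Mon2 (25 against 9) and Gm11223, a processed pseudogene whose reads may come from its parent gene (27 against 9). Lower were Wfdc17, a small secreted protein of activated macrophages (6 against 36, -2.63, -4.17 to -1.37), and Arhgef3, a guanine nucleotide exchange factor that was also present in the T lymphocytes at 195 CPM (8 against 38, -2.30, -3.61 to -1.17). With them came Lax1 (10 against 31), Pdp2 (8 against 24), 1600014C10Rik (8 against 22), Ndst1 (8 against 22), Chst15 (11 against 30), Pygb (9 against 24), Ubxn6 (9 against 24) and the processed pseudogene Gm12058 (9 against 25). Wfdc17 lay in 9 Mpo-low wells, of which 3 held 20 of the 36 UMIs.

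Granulocyte and erythroblast transcripts were lower in the summed Mpo-high cells, and 2 Mpo-low wells held many of them. All 8 granulocyte markers had a log2 ratio below 0 (S100a9 164 against 226 UMIs, -0.51, -0.81 to -0.21), as had all 6 erythroblast markers (Hba-a1 983 against 1206, -0.34, -0.47 to -0.22). Per well the granulocyte list ranged from 713 to 4556 CPM in the Mpo-high and from 840 to 12104 in the Mpo-low cells, with medians of 1921 and 1675. The wells K6 and M14 of the low group held 12104 and 9954 CPM, where no other Mpo-low well passed 3193, and they were also the highest of that group in erythroblast markers, at 39026 and 31843 CPM. Among the middle wells 1 reached 168512 CPM of erythroblast markers. Without K6 and M14 the log2 ratio of the granulocyte list went from -0.57 to 0.13 and that of the erythroblast list from -0.50 to -0.11, while 85 genes were at least 2-fold higher and 64 at least 2-fold lower. Without these wells the megakaryocyte and erythroid list was at -0.47, haem synthesis at -0.27, lymphoid priming at -0.03 (-0.18 with them), Flt3 at -0.20 (-0.41 with them), Gata2 at -1.65 and Prtn3 at 1.01. In the granulocyte wells themselves the list reached 151626 CPM. The B lymphocyte markers had 19 against 18 UMIs. The T lymphocyte markers, with Cd3d, Cd3e and Cd3g among the members, had 4 against 18 (log2 ratio -2.22, -4.24 to -0.62). Over all progenitor/stem cells this T lymphocyte list stood at 47.9 CPM, between the erythroblasts (39.0 CPM) and the B lymphocytes (73.6 CPM).

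The index data were recorded before any RNA was read and did not enter the ranking. Sca-1 fluorescence had a median of 3848 arbitrary units in the Mpo-high cells (2123 to 10753), 5896 in the middle (2262 to 25890) and 6989 in the Mpo-low cells (2283 to 20639). Thus 28 of 31 Mpo-high wells lay below the Mpo-low median, 26 of 31 Mpo-low wells lay above the Mpo-high median, and the low group had 1.82 times the median of the high group. The same order held within each plate row, with medians of 2969 against 6666 in row K, 4212 against 16916 in row L, 4257 against 6344 in row M and 3344 against 6786 in row N. The difference of the medians, -3141, was -4885 with ties ordered the other way and -3648 against all 50 wells without Mpo. Its transcript Ly6a was too sparse to follow, with 20 against 24 UMIs (log2 ratio -0.31, -1.24 to 0.61).

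The other channels moved less. c-Kit had medians of 6911 in the Mpo-high (3347 to 11442) and 5804 in the Mpo-low cells (2927 to 11279), and 25 of 31 Mpo-high wells lay above the Mpo-low median. The difference of 1107 was 410 between the upper and the lower 47 wells. Side scatter area, which reflects granularity, had medians of 33088 (20672 to 73088) and 28032 (18240 to 41024), with 25 of 31 Mpo-high wells again above the Mpo-low median. Forward scatter area, a measure of size, differed by 5000 units between medians of 112000 and 107000, and CD44 by 363 between 6930 and 6567 (1010 with ties ordered the other way). Mac-1 went the other way, at medians of 102 and 157, and 26 of 31 Mpo-high wells lay below the Mpo-low median. Both medians were far under the 1173 of the granulocytes, and the difference of -55 was -19 with ties ordered the other way. As all wells belong to 1 mouse, none of these differences has an error across animals.

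**Figure D5:**
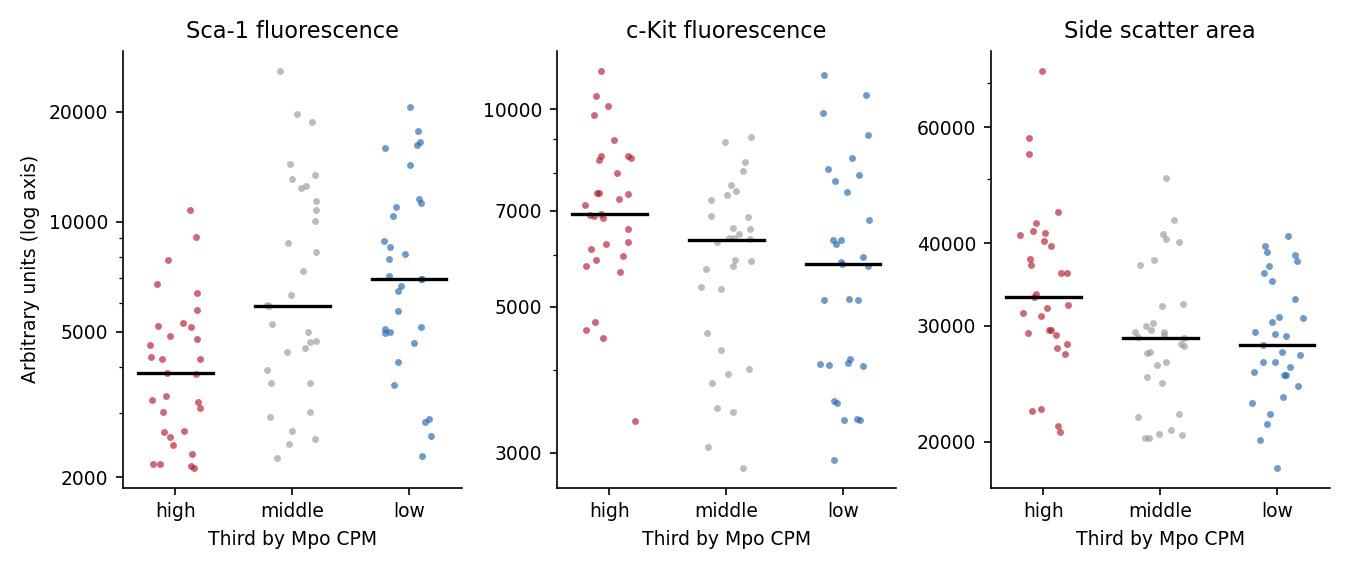
Sca-1 fluorescence, c-Kit fluorescence and side scatter area (y axes, arbitrary units, log) of each well in the 3 groups by Mpo (x axis). Points are wells and lines are medians. The Sca-1 median was 3848 in the high and 6989 in the low group, that of c-Kit 6911 and 5804, and that of side scatter 33088 and 28032.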

How the data were processed

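RNA of index-sorted cells was read by CEL-seq2 from 1 plate. The UMI counts deposited by the authors are whole numbers made with scPipe, without normalization. The sources used here do not state the aligner version, genome build, annotation or strand setting. Each column was assigned through its well name, and 9 columns without a matching sample stayed out. Symbols are those of GENCODE M21, and 74 mouse gene IDs have none. Promoter windows are from RefSeq (GRCm38.p6), where Mpo, Prtn3, Ctsg and Elane were matched by symbol.

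Wells were kept with at least 3000 UMIs on mouse genes (19829 genes, ERCC left out), and ranked and split as stated. Counts were summed per group and divided by the summed UMIs on mouse genes (CPM). Ratios used genes with at least 30 UMIs in both groups together, and sums under 3 UMIs were set to 3 to count genes past 2-fold. Counts and shares of wells with a UMI are of unthinned wells, whose depth differs between populations. Only where thinning is named was each well thinned to 3000 UMIs (fixed seed), which left out 1 progenitor/stem cell well. With 1 sample a group, no p-value was computed. Named genes are the 12 highest and 12 lowest ratios among genes detected in 25% or more of the wells where they were higher, with no well above 25% of the sum, plus the members of the lists. Some genes that met this rule are not reported here. The members and lists were chosen with earlier results of these data known. Cells were deposited singly and no doublet caller was run, so whether any well held more than 1 cell was not tested.

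Alternatives changed the scaling (scran 1.30.0 size factors, mean over wells, totals without 4 ribosomal RNA genes), depth, minimum counts, split, order of ties, plate rows and wells, and those with all wells without Mpo as the low group, without K6 and M14, and the fluorescence under the other order of ties were chosen later, with the data in view. Python 3.11.15 with numpy 2.4.6, pandas 2.3.3, scipy 1.17.1 and matplotlib 3.10.9, and R 4.3.3 were used. The intervals were tried on simulated sums drawn with counting error alone, which is the error they assume. Spread between wells was not part of that simulation. Some reads of pseudogenes and of overlapping genes (D530033B14Rik over 1600014C10Rik, Chaf1a over Ubxn6) cannot be assigned with certainty.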

Additional observations from a re-analysis of the deposited data

How the results depend on the processing

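Of 384 values of the 24 named genes under alternatives, 379 kept the sign. These genes were chosen for extreme ratios in the same wells, so this was largely set by the choice. Over the 125 measured genes of the lists and named genes, 1799 of 2000 values kept the sign. For 73 of these genes at least 1 value did not. Among the named genes, Mon2 (-0.26) and Wdr76 (-0.58) changed sign after thinning with a new ranking. There Fh1 and 1600014C10Rik came to 0, and Mon2 came to 0 after thinning alone. For the lists 313 of 335 values kept the sign. The counts of genes at least 2-fold higher and lower, 88 and 64, were 411 and 404 after thinning to 3000 UMIs, 405 and 374 with a new ranking on top, 193 and 169 with a minimum of 20 UMIs per gene, 5 and 3 with 100, and 593 and 751 with none. Thinned sums and low minimums hold fewer UMIs per gene by construction. The counts were 49 and 40 in rows K and L, 67 and 39 in rows M and N, 189 and 96 with ties ordered with the higher total first, and 90 and 100 against all wells without Mpo. No scaling moved the median of all genes by over 0.1.

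Summed log2 ratios that left their counting interval were as follows; the cause was not tested. With ties ordered with the higher total first, gate genes stood at -0.17, primary granule proteins 0.078, myeloid receptors and surface genes 0.18, stem cell genes -0.61, haem synthesis -0.12, DNA replication 1.97, mitosis 1.38, nucleolar genes 0.64, immediate early genes 0.082, granulocyte markers -0.26, ribosomal protein genes -0.11 and mitochondrial genes 0.86. Rows K and L gave primary granule proteins 0.64, stem cell genes 0.12, lymphoid priming -0.48, mitosis -0.17, immediate early genes -1.15, erythroblast markers -0.58 and mitochondrial genes 0.0075, and rows M and N gave 0.21, -0.47, 0.15, 0.94, -0.097, -0.43 and -0.49. Thinning gave myeloid receptors 0.61, immediate early genes 0, granulocyte markers -0.21, erythroblast markers -0.28, ribosomal protein genes 0.015 and mitochondrial genes -0.43. With a new ranking on top, stem cell genes were at 0.14, lymphoid priming -0.36, dendritic cell genes 0.32, DNA replication -0.014, nucleolar genes -0.016, granulocyte markers -0.25, erythroblast markers -0.73, ribosomal protein genes 0.14 and mitochondrial genes -0.64. The highest against the lowest 23 wells gave megakaryocyte and erythroid genes -0.78, granulocyte markers -0.76, erythroblast markers -0.58, ribosomal protein genes 0.12 and mitochondrial genes -0.41, and the upper against the lower 47 wells erythroblast markers -0.034 and mitochondrial genes -0.038. The mean over wells gave granulocyte markers -0.19, erythroblast markers -0.28 and mitochondrial genes -0.36, and scran factors -0.22, -0.30 and -0.42, with ribosomal protein genes at 0.011. Against all wells without Mpo, stem cell genes were at -0.38, DNA replication 0.78 and mitochondrial genes -0.056. Without K6 and M14, granulocyte markers were at 0.13, erythroblast markers -0.11 and ribosomal protein genes -0.016. Leaving out 1 well at a time gave ranges of 0.48 (without L20) to 0.79 (without K1) for DNA replication, 0.26 (without N14) to 0.92 (without N3) for mitosis, 0.14 to 0.36 (without K1) for nucleolar genes, -0.72 to -0.12 (without K24) for immediate early genes, -0.63 to -0.26 (without M14) for granulocyte markers, -0.55 to -0.33 (without M14) for erythroblast markers, 0.0011 (without M14) to 0.081 for ribosomal protein genes and -0.48 (without M18) to -0.11 (without M16) for mitochondrial genes.

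Leaving out wells nearest to another population removed none. No paired analysis was possible because all wells are of 1 mouse and well numbers pair no cells. Depth limits single wells: 1 UMI is worth over 50 CPM in most of them.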
